A study of Mus musculus with 24 samples.

Results

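Lpl, Pparg, Cd36, Fabp4, Fabp5, Plin2, Lipe and Pnpla2 are 8 genes of fatty acid uptake, storage and release that are highly expressed in adipocytes. They were selected on measured values, namely their differences within the 4 experiments of one mouse breast cancer study, and 7 of the 8 were among the genes of the table. Pparg was not in the table, so its expression is not analysed here. Because the differences within the 4 experiments chose the genes, those differences are described below with no test, and counts of the genes that differ there support nothing.

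The study asked how pleiotrophin (PTN), a secreted heparin-binding growth factor, shapes gene expression in mammary tumors, by blocking it with an antibody in mice and by knocking it down in cultured cells. Bulk RNA sequencing covered 24 samples in 8 groups of 3. The 4T1 tumors grew from a triple-negative mammary cancer cell line placed in the mammary fat pad of female BALB/c mice at 8 weeks of age, so host fat lies next to them. The MMTV-PyMT tumors arose in FVB/N mice that carry the polyoma middle T oncogene under a mammary tumor virus promoter, with therapy from 8 weeks of age. In each tumor model, 3 samples came from mice given C44, a control antibody, and 3 from mice given 3B10, a mouse monoclonal antibody to PTN. Both antibodies were given at 15 mg/kg, 2 times a week. E0771 is a C57BL/6 mammary carcinoma line, and E0771-LG was derived from a lung metastasis of it. Each line carried either a control hairpin directed at EGFP (shCtrl) or 1 hairpin directed at Ptn (shPTN). These were populations kept in puromycin for 6 weeks, and a single hairpin does not separate the loss of PTN from other effects of that hairpin. The paper calls the 3 samples of a group biological replicates, and the labels do not say whether the cell samples were separate cultures, so p-values in the cells measure the spread between these samples, which may be technical.

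Fatty acids reach a cell from lipoproteins or from albumin. LPL, anchored on capillary walls, frees them from circulating triglyceride, CD36 helps them across the plasma membrane, and the binding proteins FABP4 and FABP5 carry them in the cytoplasm. Stored triglyceride sits in droplets coated by perilipins such as PLIN2, and is broken down by adipose triglyceride lipase (Pnpla2) and then hormone-sensitive lipase (Lipe), while PPARγ, the product of Pparg, drives transcription of many of these genes in fat.

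Levels are the deposited log2 values. In the MMTV-PyMT, E0771 and E0771-LG samples these were log2 CPM, reads scaled to the size of the library, with an offset of 0.5 reads, so whole read numbers could be recovered, from libraries of 15.63 to 21.12 M reads. In the MMTV-PyMT experiment each C44 library (18.76 to 19.25 M) was larger than each 3B10 library (16.26 to 18.44 M). The 4T1 values showed no steps of whole reads and declined relative to the other samples in longer genes, and were treated as normalized for length, with the depth unknown. Levels were therefore not compared between 4T1 and the other samples. A count of 0 reads in a library allows up to 3 reads, and this limit, like the read numbers, covers counting error only.

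The target of the hairpin was measured first. In E0771 cells Ptn stood at 2.90, 2.18 and 2.28 (128, 92 and 80 reads) in the shCtrl samples and at -0.63, 0.25 and 0.53 (12, 21 and 22 reads) in the shPTN samples. In E0771-LG cells it stood at 3.65, 4.51 and 3.74 with shCtrl and at 1.42, 0.98 and 1.38 with shPTN. All shPTN samples were below all shCtrl samples of their line. The log2 fold change of Ptn was -2.40 ± 0.37 (SE, n = 3 per group) in E0771 (limma, adjusted p = 0.00159) and -2.71 ± 0.28 in E0771-LG (limma, adjusted p = 6.3e-05).

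**Figure D1:**
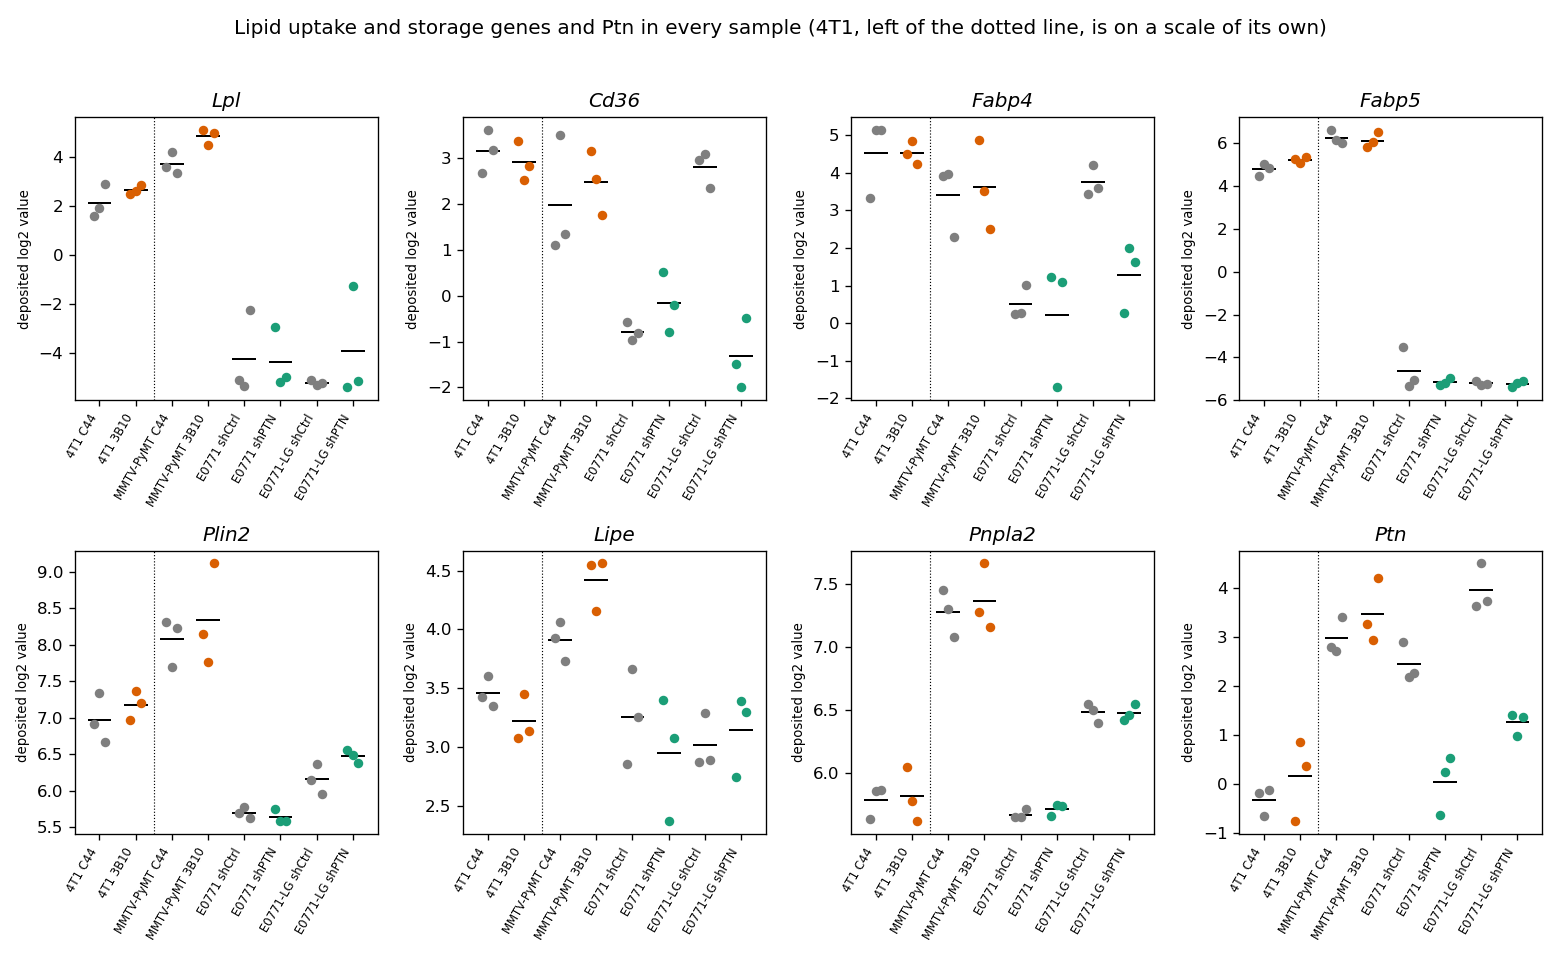
Deposited log2 value (vertical axis) of 7 members and of Ptn in each of the 24 samples, by group. Dots are samples, lines are group means, and 4T1 is on a scale of its own. Cd36 and Fabp4 were high in the E0771-LG shCtrl samples, and Lpl and Fabp5 lay at 0 to 7 reads in all 12 cell samples.

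Among the uptake genes, Cd36 and Fabp4 showed the widest contrast in cultured cells. Cd36, a scavenger receptor and fatty acid translocase, lies at chr5:17781690-17888801 on the minus strand (GRCm38). In E0771-LG cells it stood at 2.96, 3.10 and 2.35 (134, 167 and 94 reads) with shCtrl and at -1.49, -2.00 and -0.48 (7, 4 and 12 reads) with shPTN. All 3 shCtrl samples were high, all 3 shPTN samples were near the lower end of detection, and the lowest of the former exceeded the highest of the latter by 2.82 on the log2 scale. This came to a log2 fold change of -4.13 ± 0.47 (SE, n = 3 per group). Adding 1 CPM before the logarithm, which weighs low values less, gave -2.51. In these 6 samples Cd36 passed the low-level filter, 1 CPM above the lowest value of the sample in at least 3 of 6 samples, through the shCtrl samples alone (3 of 3 against 0 of 3).

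In E0771 cells Cd36 stood at -0.58, -0.96 and -0.81 (11, 10 and 9 reads) with shCtrl and at 0.51, -0.78 and -0.21 (27, 10 and 13 reads) with shPTN. The groups overlapped, and Cd36 did not pass the filter there. Its log2 difference without a filter was 0.62 ± 0.43 (SE). The E0771-LG shPTN samples thus lay among or below the levels of E0771 cells, from 4 to 12 reads against 9 to 27 reads.

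Fabp4, the adipocyte fatty acid binding protein that macrophages and capillary endothelium also express, lies at chr3:10204088-10208576 on the minus strand. In E0771-LG cells it stood at 3.45, 4.20 and 3.59 (189, 359 and 224 reads) with shCtrl and at 0.27, 1.99 and 1.62 (25, 71 and 53 reads) with shPTN. The groups did not overlap, and shPTN replicate 1 was the lowest. Between the group means lay a log2 fold change of -2.46 ± 0.42 (SE, n = 3 per group). In E0771 cells Fabp4 stood at 0.25, 0.26 and 1.01 (20, 24 and 33 reads) with shCtrl and at 1.24, -1.71 and 1.10 (45, 5 and 33 reads) with shPTN. Here 2 of the shPTN samples were above all controls and 1 was far below, and the log2 fold change was -0.30 ± 0.71 (SE).

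Lpl and Fabp5 were at or close to 0 in the cells. Lpl, the secreted lipase at chr8:68880491-68907448 on the plus strand, had 0, 0 and 3 reads in E0771 shCtrl, 2, 0 and 0 in E0771 shPTN, 0, 0 and 0 in E0771-LG shCtrl and 0, 7 and 0 in E0771-LG shPTN. Fabp5, the epidermal binding protein at chr3:10012548-10016607 on the plus strand, had 1 read in E0771 shCtrl replicate 1 and 0 in the other 11 cell samples. No fold change is given for either gene in cells. Fabp5 has a processed pseudogene, Fabp5l2, that could share reads with it, so its levels carry that uncertainty. Fabp4 and Fabp5 lie 187 kb apart on chromosome 3, and only Fabp4 was detected well above the floor in these lines.

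Among the droplet and lipase genes the differences were smaller. Plin2, at chr4:86648386-86670060 on the minus strand, stood at 6.14, 6.37 and 5.95 in E0771-LG shCtrl and at 6.56, 6.49 and 6.38 in E0771-LG shPTN. The groups were separated by 0.02 on the log2 scale, the shPTN samples being higher, with a log2 fold change of 0.32 ± 0.12 (SE). In E0771 cells Plin2 stood at 5.69, 5.77 and 5.62 with shCtrl and at 5.75, 5.58 and 5.59 with shPTN, and the groups overlapped (-0.06 ± 0.10, SE). Pnpla2, at chr7:141455198-141460743 on the plus strand, ranged from 5.65 to 5.75 in all 6 E0771 samples and from 6.40 to 6.55 in all 6 E0771-LG samples. Its log2 fold change with shPTN was 0.04 ± 0.09 (SE) in E0771 and -0.01 ± 0.10 (SE) in E0771-LG. Lipe, at chr7:25379527-25398710 on the minus strand, had overlapping groups in both lines, with log2 fold changes of -0.31 ± 0.28 (SE) in E0771 and 0.13 ± 0.23 (SE) in E0771-LG.

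Counted together, 5 of the 7 members in the table passed the filter in the E0771-LG knockdown comparison, and 3 of these (Cd36, Fabp4 and Plin2) had groups that did not overlap, where 57.1% of 10405 tested genes did not overlap and 46.4% were called by limma at an adjusted p under 0.05. In E0771 cells 4 members passed and 0 had separate groups, where 39.4% of 10394 tested genes did not overlap and 20.6% were called. Since these contrasts chose the members, nothing is read from these counts. Whether the difference in Cd36 or Fabp4 itself differed between the lines was not tested.

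**Figure D2:**
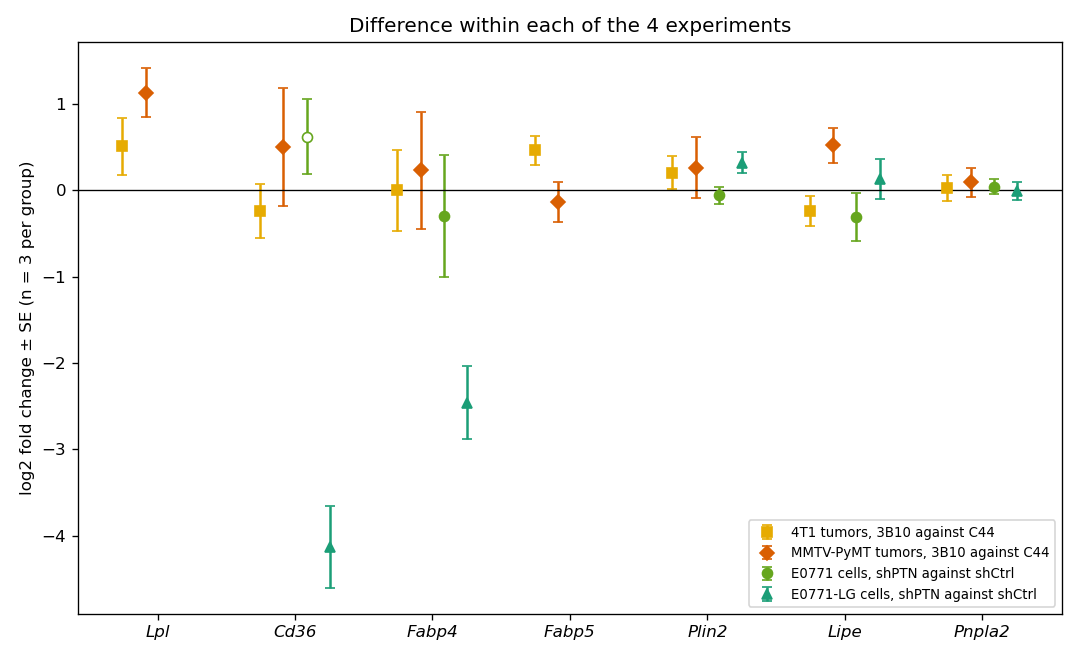
Log2 fold change (vertical axis, with SE, n = 3 per group) of each member in each of the 4 experiments. Filled marks passed the low-level filter, the open mark (Cd36 in E0771) did not, and no mark is drawn for Lpl and Fabp5 in cells. Cd36 at -4.13 and Fabp4 at -2.46 in E0771-LG lie apart from the other values, which range from -0.31 to 1.13.

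RefSeq promoters, 250 bases before to 50 after a start site on GRCm38.p6, were found for 5 of the 8 genes (8 windows), with none in the table used for Lpl, Fabp4 and Fabp5. They were searched on both strands for AGGTCA, the nuclear receptor half-site, and for AGGTCANAGGTCA, the repeat spaced by 1 base that PPARγ and its partner RXR are known to bind and that contains the half-site. The half-site was in 4 of the 8 windows, against 5340 of 32851 promoters (16.3%). Of the 4, 2 were among the 3 windows of Pparg, 1 was that of Cd36 and 1 that of Plin2, with none in the 2 windows of Lipe or the 1 of Pnpla2. The longer repeat was in 0 of the 8, against 13 of 32851 (0.0396%). The windows of Cd36, with the widest difference, and Plin2, the member that coats droplets, are printed here 5′ to 3′ in the direction of transcription, with capitals marking the half-site, which lies on the opposite strand in both. The windows are chr5:17835847-17836146 and chr4:86670010-86670309, and the match starts at -228 and -218 from the start site. A match is a description of these letters, not of binding.
Cd36: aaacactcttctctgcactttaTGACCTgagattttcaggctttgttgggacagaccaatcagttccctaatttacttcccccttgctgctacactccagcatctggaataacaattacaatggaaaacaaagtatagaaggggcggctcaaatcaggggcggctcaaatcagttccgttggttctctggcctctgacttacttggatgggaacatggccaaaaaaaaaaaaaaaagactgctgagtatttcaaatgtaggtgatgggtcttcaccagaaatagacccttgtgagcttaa
Plin2: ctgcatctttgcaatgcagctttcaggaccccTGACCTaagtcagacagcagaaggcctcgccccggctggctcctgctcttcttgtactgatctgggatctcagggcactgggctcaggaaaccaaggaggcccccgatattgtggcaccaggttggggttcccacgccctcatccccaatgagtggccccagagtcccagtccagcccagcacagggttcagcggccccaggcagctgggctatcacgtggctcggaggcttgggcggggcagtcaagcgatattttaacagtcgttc

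The 2 lines were also compared with each other. All samples of that comparison belong to the contrasts that chose the members, and a high level in the E0771-LG shCtrl samples enters both, so the members are described here with no test. In shCtrl cells 54.5% of 10411 tested genes were called by limma at an adjusted p under 0.05 (2004 higher in E0771-LG and 3672 lower). The log2 difference, E0771-LG minus E0771, was 3.58 ± 0.35 (SE) for Cd36 and 3.24 ± 0.31 for Fabp4, and 3 of 3 E0771-LG samples exceeded every E0771 sample. Cd36 again passed the filter through the E0771-LG samples alone (0 of 3 against 3 of 3), so its size is uncertain. Pnpla2 was higher by 0.81 ± 0.10 and Plin2 by 0.46 ± 0.12, both with groups that did not overlap. No share of all genes with separate groups is given between the lines, so nothing is read from the separation of members there. Lipe had overlapping groups (-0.25 ± 0.24). The E0771 values rose relative to E0771-LG with transcript length, by 0.185 log2 units per doubling of length over 9382 genes. This trend was not removed from the differences between the lines.

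In shPTN cells 63.9% of 10508 tested genes were called (2756 higher in E0771-LG and 3963 lower). Plin2 was higher by 0.84 ± 0.10 and Pnpla2 by 0.76 ± 0.09, in 3 of 3 samples each. Fabp4 (1.08 ± 0.77) and Lipe (0.19 ± 0.28) had overlapping groups. Cd36 did not pass the filter, and its level was -0.16 ± 0.65 (SD, n = 3) in E0771 and -1.33 ± 0.78 in E0771-LG. The median of all tested genes was -0.15 in shCtrl and -0.10 in shPTN cells, and moved to -0.00 and 0.01 with median-of-ratios scaling, which turned the calls to 2836 higher and 2846 lower in shCtrl cells and 3383 higher and 3363 lower in shPTN cells. Quantile normalization gave 2830 and 2671, and 3408 and 3324. With median-of-ratios scaling the 4 members were at larger differences in shCtrl cells, Cd36 at 3.73, Fabp4 at 3.39, Pnpla2 at 0.96 and Plin2 at 0.61. Lipe was at 0.24 with quantile normalization, the opposite sign.

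**Figure D3:**
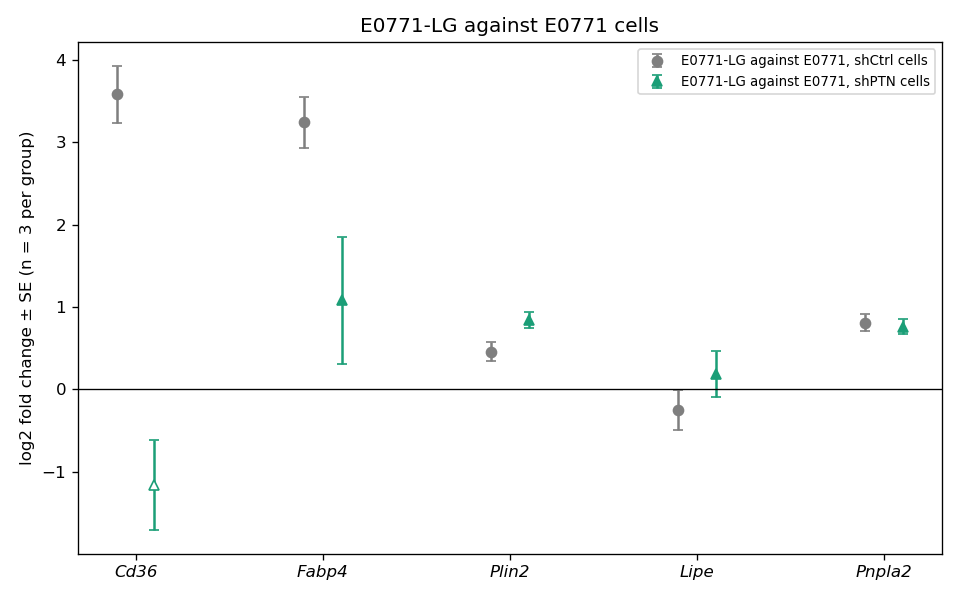
Log2 fold change of 5 members in E0771-LG against E0771 cells (vertical axis, with SE, n = 3 per group), in shCtrl (circles) and shPTN (triangles) cells. The open mark did not pass the low-level filter. Plin2 and Pnpla2 lie above 0 in both, while Cd36 and Fabp4 lie above 3 in shCtrl cells alone.

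Markers of other cell types in the cells were as follows. The marker lists were written with earlier results of these data known, so their calls are descriptions. Levels here are CPM above the lowest value of the sample. Of 17 adipocyte markers 3 were in the table (Cfd, Thrsp and Lgals12), and their summed level was 0.116, 0 and 0.0538 in E0771-LG shCtrl and 0 in all 3 E0771-LG shPTN samples. The other 14 adipocyte markers were not in the table. Of 12 macrophage markers in the table the summed level was 10.8, 14.5 and 16.5 in E0771-LG shCtrl, with Mertk most abundant in each, and 17.1, 22.7 and 20.4 in shPTN, with Lyz2 most abundant. Adgre1, C1qa, C1qb and C1qc were at 0 in all 6 samples, and of the 4 macrophage markers that reached the filter level in both groups 2 rose, Cd68 (2.17 ± 0.43, SE, limma, adjusted p = 0.00207) and Lyz2 (1.27 ± 0.28, SE, limma, adjusted p = 0.00422), and 1 fell, where 46.1% of all genes counted the same way were called. Of 9 endothelial markers the summed level was 13.3, 18.4 and 12.9 with shCtrl and 30.3, 37.6 and 32.9 with shPTN, led by Egfl7, and Emcn and Cldn5 were at 0 in all shCtrl samples. Of the 5 tested 3 rose, Esam (2.51 ± 0.45, SE, limma, adjusted p = 0.00133), Egfl7 (1.40 ± 0.20, limma, adjusted p = 0.000331) and Flt1 (0.90 ± 0.32, limma, adjusted p = 0.0414). Esam had 11, 46 and 17 reads with shCtrl and Cd68 had 20, 11 and 27, so the sizes of their differences are uncertain. The call of Flt1 held without 2 of the 6 samples in turn, and in 5 of 7 other processing settings. Epithelial markers, 9 in the table, summed to 158, 204 and 164 with shCtrl and 424, 565 and 516 with shPTN, almost all of it Krt8, and Cldn4 was at 0 in all 6 samples. The 2 that reached the filter level in both groups rose, Krt8 (1.57 ± 0.14, SE, limma, adjusted p = 3.88e-05) and Epcam (0.46 ± 0.16, limma, adjusted p = 0.0381). The call of Epcam held without 2 of the 6 samples in turn. The 7 markers of lactating epithelium summed to 40.9, 84.4 and 51.7 and to 42.3, 52.9 and 59.1, led by Xdh. Csn2, Csn1s1, Lalba and Elf5 were at 0. Of the 2 tested, Csn3 rose by 2.07 ± 0.30 (SE, limma, adjusted p = 0.00038), from 31, 79 and 59 reads to 218, 222 and 241. The 7 skeletal muscle markers summed to at most 5.38 in any E0771-LG sample. Acta1 alone of these reached the filter level in both groups. It fell from a mean log2 value of 1.66 ± 0.51 (SD, n = 3) to 0.46 ± 0.44 (limma, adjusted p = 0.0292). This call held without 3 of the 6 samples in turn. The part of adipocytes and of the other cell types in the differences of Cd36 and Fabp4 was not tested.

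In E0771 cells the adipocyte markers summed to at most 0.348 in any sample. The macrophage markers summed to 19, 32.8 and 22.9 with shCtrl and to 54.7, 45.9 and 49.1 with shPTN, with C1qa, C1qc and Itgam at 0 in all 6. Among the 3 tested, Lyz2 (2.23 ± 0.16, SE, limma, adjusted p = 1.55e-05) and Mertk (0.79 ± 0.21, limma, adjusted p = 0.0214) rose, and the call of Mertk held without 3 of the 6 samples in turn. The third, Cd68, was not called, with 94, 311 and 171 reads with shCtrl and 114, 83 and 72 with shPTN. The endothelial markers summed to 37, 36.4 and 43.5 and to 52.9, 39 and 46.1, led by Egfl7. Of these, 1 of 4 tested was called, Tie1 (0.52 ± 0.17, SE, limma, adjusted p = 0.0497). The call of Tie1 was lost without each of the 6 samples in turn, and held in 6 of 8 other processing settings. Beside these marker counts, 20.4% of all genes counted the same way were called. The skeletal muscle markers summed to 5.51, 7.3 and 6.8 and to 15, 13.6 and 15.2, led by Actn3, which rose by 1.52 ± 0.21 (limma, adjusted p = 0.000892). Epithelial markers summed to 99.3, 114 and 107 and to 115, 99.6 and 109, led by Krt8, and lactating epithelium markers to 142, 171 and 152 and to 131, 146 and 139, led by Xdh. Cldn5, Krt19, Krt5, Csn2, Lalba and Myh4 were at 0 in all 6 samples, and the part of these cell types in the member levels was not tested.

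Other genes of the pathway were taken from 5 lists with 75 genes besides the members, of which 58 were in the table. The lists were written by hand with earlier results of these data known. Their calls and shares are therefore descriptions and give no independent support. Counts of these lists leave out genes that passed the filter through 1 group alone, which had to differ. In E0771-LG cells 11 of 51 rose and 12 fell with shPTN (45.1%, beside 46.1% over all genes counted the same way), with a median log2 fold change of 0.01 beside 0.05 over all tested genes. The PPAR partners and adipogenic factors held 3 of 9 that fell and 0 that rose. Ppargc1a, a coactivator of PPARγ and of mitochondrial genes, stood at 4.09 ± 0.27 (SD, n = 3) with shCtrl and 1.21 ± 0.44 with shPTN (log2 fold change -2.88 ± 0.27, SE, limma, adjusted p = 4.36e-05). Rxra, the partner receptor, fell by 0.81 (SE 0.12, limma, adjusted p = 0.000388). Of 13 tested genes of lipoprotein and fatty acid uptake 2 rose and 5 fell. The fatty acid transporter Slc27a1 was 1 of the 2 that rose (0.78 ± 0.11, limma, adjusted p = 0.000264). Of 15 fatty acid oxidation genes 5 rose and 1 fell, with Acadl, a long-chain acyl-CoA dehydrogenase, up by 0.89 ± 0.16 (limma, adjusted p = 0.0011).

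Genes of triglyceride synthesis and droplet coat in E0771-LG cells were 3 up and 3 down of 11. Hilpda, an inhibitor of the lipase encoded by Pnpla2, rose by 0.85 ± 0.16 (limma, adjusted p = 0.00145). Dgat1, which makes triglyceride, rose by 0.72 ± 0.21 (limma, adjusted p = 0.0176), and Dgat2, which does the same, fell by 1.52 (SE 0.56, limma, adjusted p = 0.0452), with calls that held without 4 and 2 of the 6 samples in turn. The call of Dgat2 held in 5 of 7 other processing settings. Among 3 lipolysis partners 1 was called. Prkar2b, a regulatory subunit of protein kinase A, rose by 0.49 ± 0.17 (limma, adjusted p = 0.0306). This call held without 2 of the 6 samples in turn, and in 7 of 8 other processing settings. Mgll, the monoacylglycerol lipase, had 4, 14 and 11 reads with shCtrl and 37, 47 and 45 with shPTN. It passed the filter through the shPTN samples alone, so no fold change or test is given for it. With Mgll counted the total was 24 called genes, and it was 15 without shCtrl replicate 3, 11 without shPTN replicate 2 and 13 without shPTN replicate 3.

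In E0771 cells 4 of 50 list genes rose and 8 fell (24%, beside 20.4% over all genes), with a median of -0.00 beside -0.03. Prkar2b rose here too (1.91 ± 0.35, limma, adjusted p = 0.00388). Mgll, again past the filter through the shPTN samples alone, had 4, 10 and 11 reads with shCtrl and 50, 37 and 48 with shPTN. Lipg, an endothelial lipase of the LPL family, rose by 1.25 ± 0.20 (limma, adjusted p = 0.00179), and in E0771-LG it fell by 0.75 (SE 0.28, limma, adjusted p = 0.0483). Of 15 fatty acid oxidation genes 2 rose and 4 fell, among them Acads by 0.64 (SE 0.11, limma, adjusted p = 0.00296) and Acadl by 0.45 (SE 0.11, limma, adjusted p = 0.0145). The differences of Lipg and Acadl between the lines were not tested. Lipa, the lysosomal acid lipase, fell by 0.74 (SE 0.11, limma, adjusted p = 0.00164), Acsl1, which activates fatty acids, by 0.55 (SE 0.10, limma, adjusted p = 0.00419), and Gpat3, of triglyceride synthesis, by 0.82 (SE 0.21, limma, adjusted p = 0.018). The calls of Gpat3 and Acadl held without 3 of the 6 samples in turn. That of Lipg in E0771-LG held without 2, and in 7 of 8 other processing settings. Of 8 PPAR partners and adipogenic factors 0 were called. With Mgll counted the total was 13 called genes, and it was 7 without shCtrl replicate 2, 6 without shCtrl replicate 3, 8 without shPTN replicate 2 and 6 without shPTN replicate 3.

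Between the lines, 7 of 49 list genes were higher and 24 lower in E0771-LG in shCtrl cells (63.3%, beside 53.7% over all genes, with a median of -0.35 beside -0.15), and 7 of 51 were higher and 23 lower in shPTN cells (58.8%, beside 63.3%, with a median of -0.23 beside -0.11). Left out of these were Dgat2 in shCtrl cells and Ppargc1a in both. These directions were taken without rescaling, where more genes of the whole table were lower than higher, a split that median-of-ratios scaling evened out. The trend with transcript length between the lines was not removed here either. Ppargc1a had 8, 7 and 2 reads in the E0771 shCtrl samples and 238, 386 and 340 in the E0771-LG shCtrl samples. It passed the filter through the E0771-LG samples alone in both comparisons, so no fold change or test is given for it. Cebpd, an early adipogenic factor, was higher by 2.47 ± 0.17 (limma, adjusted p = 4.49e-06) and 2.01 ± 0.25 (limma, adjusted p = 6.78e-05). Lrp1, a lipoprotein receptor, was lower in both, with log2 fold changes of -2.38 ± 0.37 (limma, adjusted p = 0.0018) and -2.33 ± 0.16 (limma, adjusted p = 1.36e-06). Of 15 fatty acid oxidation genes 9 were lower and 0 higher in shCtrl cells, and 5 were lower and 2 higher in shPTN cells.

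In MMTV-PyMT tumors the members with the clearest separation were Lpl and Lipe. Lpl stood at 3.60, 4.23 and 3.34 (232, 361 and 190 reads) with C44 and at 5.12, 4.48 and 4.97 (565, 412 and 509 reads) with 3B10. All 3B10 tumors were above all C44 tumors, by 0.25 between the nearest samples. For Lpl this gave a log2 fold change of 1.13 ± 0.28 (SE, n = 3 per group). Lipe stood at 3.93, 4.06 and 3.73 with C44 and at 4.55, 4.16 and 4.56 with 3B10. The groups were 0.10 apart, with a log2 fold change of 0.52 ± 0.20 (SE). C44 replicate 3 was lowest and 3B10 replicate 2 was the lowest treated tumor for both genes. In a bulk tumor, a change in the number of cells of a type and a change in the RNA of a gene per cell cannot be told apart.

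The other 5 members had overlapping groups in MMTV-PyMT tumors. Cd36 stood at 1.11, 3.51 and 1.34 with C44 and at 3.15, 2.54 and 1.77 with 3B10, and its range within C44 was wider than its log2 fold change (0.50 ± 0.68, SE). Fabp4 stood at 3.92, 3.98 and 2.30 and at 4.88, 3.52 and 2.51 (0.23 ± 0.68, SE). Replicate 3 was the lowest of its group for Fabp4 with both antibodies. The log2 fold change was -0.14 ± 0.23 (SE) for Fabp5, 0.26 ± 0.35 for Plin2 and 0.09 ± 0.17 for Pnpla2. So 2 of 7 members had separate groups, where 8.34% of 11361 tested genes did. By limma 0 genes of the table, or 0%, were called at an adjusted p under 0.05, with 307 at an unadjusted p under 0.05, and limma with voom weights on the recovered reads also called 0.

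Adipocyte markers in these tumors varied from sample to sample. Lgals12, a galectin of fat, stood at 2.70, 3.37 and 2.65 with C44 and at 3.68, 3.74 and 4.49 with 3B10, and Cfd (adipsin) at -2.45, -1.57 and 0.44 and at 5.08, 0.90 and 0.53. Both had separate groups, and Cfd was far higher in 3B10 replicate 1 (551 reads) than in the other 5 tumors (3 to 34 reads). That tumor also had the highest Fabp4 and Lpl, while Lgals12 was highest in 3B10 replicate 3, which had the lowest Fabp4 of the treated tumors. The log2 fold change was 1.07 ± 0.32 (SE, limma, adjusted p = 1) for Lgals12 and 3.37 ± 1.30 (SE, limma, adjusted p = 1) for Cfd. Thrsp, a lipogenic factor that milk-making mammary epithelium is also known to express, was the most abundant of the 3, at 7.49, 6.55 and 8.50 with C44 and 8.16, 7.22 and 10.07 with 3B10. The summed level of the 3 was 186, 104 and 369 with C44 and 333, 164 and 1097 with 3B10, and Thrsp made up at least 86% of it in each tumor.

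**Figure D4:**
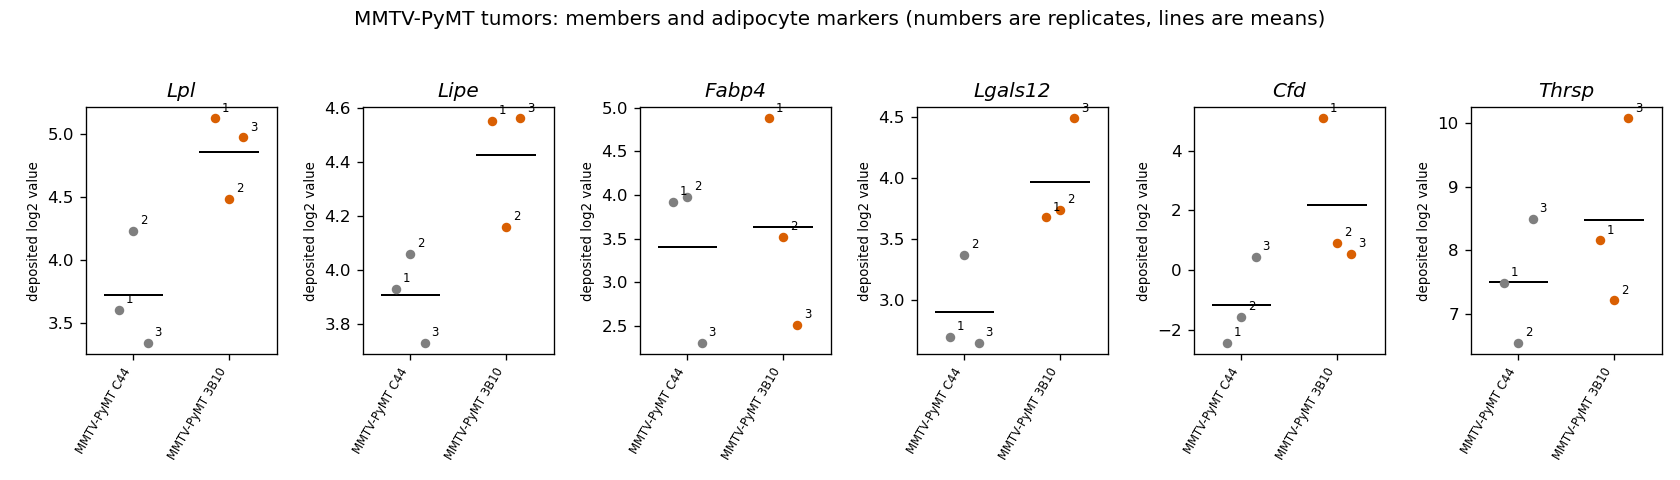
Deposited log2 values (vertical axes) of Lpl, Lipe and Fabp4 and of the adipocyte markers Lgals12, Cfd and Thrsp in the 6 MMTV-PyMT tumors. Numbers are replicates, lines are group means, and each panel has its own axis. Lpl, Lipe, Lgals12 and Cfd have separate groups, and Cfd reaches 5.08 in 3B10 replicate 1.

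Every gene of the other marker lists that the table held reached the filter level in at least 1 MMTV-PyMT tumor of each group. Macrophage markers (12 in the table, led by Lyz2) summed to 717, 702 and 431 with C44 and to 897, 487 and 529 with 3B10, and endothelial markers (9, led by Pecam1 on average) to 195, 227 and 142 and to 200, 222 and 150. Replicate 3 had the lowest endothelial sum in each group, as it had the lowest Fabp4. With C44 replicate 2 was highest for both, but with 3B10 the endothelial sum was highest in replicate 2 and Fabp4 in replicate 1. Lactating epithelium markers (7, led by Csn3) summed to 10320, 11228 and 17107 and to 9326, 14638 and 10340, epithelial markers (9, led by Krt8 on average) to 5887, 5667 and 3993 and to 4686, 5065 and 4233, and skeletal muscle markers (7, led by Mb) to between 16.6 and 46. The part of these cell types and of fat in the levels of Lpl, Lipe and Fabp4 was not tested. In the 5 lists of pathway genes 0 of 58 were called, with a median of 0.07 beside 0.05 over all genes. The highest median of these lists was that of the 6 lipolysis partners (0.37), where Abhd5, the activator of the lipase encoded by Pnpla2, was at 0.52 ± 0.18 (SE, limma, adjusted p = 1).

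In 4T1 tumors Fabp5 alone had separate groups. It stood at 4.47, 5.01 and 4.85 with C44 and at 5.25, 5.09 and 5.35 with 3B10. The nearest samples were 0.09 apart, with a log2 fold change of 0.46 ± 0.17 (SE, n = 3 per group), which ranged from 0.30 to 0.57 without each sample in turn. Lpl stood at 1.61, 1.93 and 2.89 with C44 and at 2.49, 2.63 and 2.85 with 3B10, so that C44 replicate 3 exceeded all treated tumors (0.51 ± 0.33, SE). Fabp4 stood at 3.33, 5.13 and 5.15 and at 4.51, 4.84 and 4.25, with C44 replicate 1 lowest (-0.00 ± 0.47, SE). The log2 fold change was -0.24 ± 0.31 (SE) for Cd36, 0.20 ± 0.19 for Plin2, -0.24 ± 0.17 for Lipe and 0.03 ± 0.15 for Pnpla2, all with overlapping groups. Thus 1 of 7 members had separate groups, where 11.3% of 11467 tested genes did, and limma called 0 genes (0%) at an adjusted p under 0.05, with 719 at an unadjusted p under 0.05.

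Of the adipocyte markers only Cfd passed the filter in 4T1 tumors, at -0.72, 2.08 and 3.50 with C44 and 1.59, 1.68 and 3.66 with 3B10. C44 replicate 1 was lowest for both Cfd and Fabp4, while 3B10 replicate 3 had the highest Cfd and the lowest Fabp4 of the treated tumors. On the scale of the 4T1 values, the summed level of the 3 markers was 0.249, 3.87 and 10.8 with C44 and 2.6, 2.99 and 12.4 with 3B10. Skeletal muscle markers (7 in the table) summed to 34.6, 32.3 and 64.3 with C44, led by Tnni2, and to 87, 240 and 355 with 3B10, led on average by Tnnt3, so that every treated tumor was higher. Macrophage markers (12, led by Lyz2) summed to 13185, 10082 and 12329 with C44 and 5684, 10171 and 6363 with 3B10. Epithelial markers (9, led by Krt18) summed to between 3502 and 3926 with C44 and between 5303 and 5511 with 3B10. Endothelial markers (9) summed to 188, 415 and 268 and to 230, 350 and 171, and lactating epithelium markers (7) to 116, 142 and 59.3 and to 95.3, 70.2 and 45.4, nearly all of it Xdh. The part of muscle, macrophage and epithelial content in the member levels was not tested. Of the 57 pathway list genes tested 0 were called, with a median of -0.02 beside 0.01 over all genes.

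The order of the members by level was taken per kilobase of the principal transcript, as log2 values. In both MMTV-PyMT groups Plin2 was highest (7.16 ± 0.34, SD, n = 3, with C44), followed by Pnpla2 (6.43 ± 0.19) and Fabp5 (6.27 ± 0.33), whose ranges overlapped. Fabp4 came next (3.56 ± 0.95), then Lipe (2.05 ± 0.17) and Lpl (1.68 ± 0.46), whose ranges overlapped, and Cd36 (0.22 ± 1.32) overlapped Lpl. With 3B10, Lpl (2.82 ± 0.33) overlapped both Fabp4 (3.79 ± 1.19) and Lipe (2.57 ± 0.23). In 4T1 tumors the order with C44 was Plin2, Pnpla2, Fabp5, Fabp4, Lipe, Cd36 and Lpl, and from Fabp5 down each neighbour overlapped the next. In the E0771-LG shCtrl cells Pnpla2 (5.64 ± 0.08) and Plin2 (5.24 ± 0.21) led, then Fabp4 (3.91 ± 0.40), Lipe (1.16 ± 0.24) and Cd36 (1.03 ± 0.40), the last pair overlapping. In E0771-LG shPTN cells Fabp4 (1.45 ± 0.90) overlapped Lipe (1.30 ± 0.34), and Cd36 was at -3.09 ± 0.78. In E0771 shCtrl cells Pnpla2 (4.83 ± 0.04) and Plin2 (4.78 ± 0.08) overlapped, as did Lipe (1.41 ± 0.40) and Fabp4 (0.67 ± 0.44), and Cd36 was at -2.55 ± 0.19.

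Across the groups on the common read scale, Plin2, Pnpla2, Lipe, Lpl and Fabp5 were higher in every MMTV-PyMT tumor than in every cell sample, in log2 CPM. For Cd36 and Fabp4 the E0771-LG shCtrl cells had the highest group mean (2.80 ± 0.40 and 3.75 ± 0.40, SD, n = 3), overlapping both MMTV-PyMT groups. The other 3 cell groups lay below these for both genes, and overlapped their neighbours in the order.

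The genes whose pattern was most like that of each member were found by Pearson's r over the 24 samples, after subtracting each gene's mean in each experiment, among 9789 genes tested in all 4 experiments. The samples share treatment groups, and the values are descriptions. For Cd36 they were Csnk1a1 and Arfgap2 (both r = 0.88), with r = 0.97 for each within the 6 E0771-LG samples. Within 4T1 they had -0.33 and 0.27, and within E0771 0.30 and 0.39. For Fabp4 they were Tnfaip8 (r = 0.82, but -0.10 within 4T1) and Neurl3 (r = 0.79). For Plin2 they were Arf1 (r = 0.86, but 0.34 within E0771) and Phgdh (r = 0.83, but 0.08 within E0771), for Lipe Gnb5 and Dus2 (both r = 0.80), and for Pnpla2 Sh2b2 (r = 0.73) and Bicdl1 (r = 0.72, but 0.25 within E0771-LG). For Lpl (Grhl2, r = 0.74 but 0.00 within 4T1, and Wrap73, r = 0.70) and Fabp5 (Msto1, r = 0.72 but -0.69 within E0771-LG, and Tamm41, r = 0.69) the cell samples enter at 0 to 7 reads. Between members, Lpl and Lipe had r = 0.97 over the 6 MMTV-PyMT tumors and -0.54 over the 6 4T1 tumors, and Cd36 and Fabp4 had r = 0.89 over the 6 E0771-LG samples, 0.61 over the MMTV-PyMT tumors, 0.52 over the 4T1 tumors and 0.51 over the E0771 samples.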

How the data were processed

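RNA from tumors and cell lines (24 samples) was isolated by the authors and sent out for sequencing, and reads were aligned with HISAT2 to mm10 (GRCm38) and counted with featureCounts, with edgeR and limma also named in the submitters' processing notes. The deposited values are log2, and the step that made them is not given in the sources used here. In 18 samples 100% of values came out as whole reads, and the 6 4T1 columns held no such steps. How close to a whole number a value had to be is not given here. Members were matched by symbol, the lists were written by hand, and both were chosen with earlier results of these data known. A count model had been foreseen where counts were given, and log2 values were fitted instead with limma 3.58.1 in R 4.3.3 (lmFit, then eBayes with trend and robust) on the 6 samples of each comparison, with Benjamini-Hochberg adjustment over all genes tested, called at an adjusted p under 0.05. Tests of members between the lines had been planned and were run, and their p-values are not given, since those samples are among the ones that chose the members. Genes needed 1 unit above the lowest value of the sample in 3 samples. Named genes were the members, Ptn, adipocyte markers, per list and comparison the 3 called genes with the largest difference or, with no call, the 2 most abundant (of which some are printed), and the 2 most similar genes per member. Alternatives were no filter, a filter at 5, a pseudocount of 1, quantile normalization, median-of-ratios scaling, eBayes without robust, voom weights, a replicate block and leaving out each sample. List counts without genes that passed the filter through 1 group alone were added after the data were seen.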

Additional observations from a re-analysis of the deposited data

Results flagged for a closer look

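Lipe lay on opposite sides of the control mean in the tumor models. All 3 MMTV-PyMT tumors given 3B10 were above the mean of the C44 tumors and all 3 4T1 tumors given 3B10 were below theirs, with log2 fold changes of 0.52 and -0.24. In 4T1 the groups overlapped. There 3B10 replicate 2 was at 3.45 beside a C44 mean of 3.46, and above the C44 tumors at 3.43 and 3.35. These contrasts are among those that chose the members. The difference between the models was not tested, and the 4T1 values are on a scale of their own.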

How the results depend on the processing

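The counts of called genes were within 1.5 times of the stated ones under the other filters, scalings, pseudocount, eBayes without robust and voom weights (not run for 4T1, which has no reads). Replicate numbers did not pair the samples: in none of the 6 comparisons did every same-numbered pair correlate above 0.1, and at most 4 of 6 samples correlated best with their own number. With the replicate block the counts of genes called were 0 in both tumor models, 2450 in E0771, 5012 in E0771-LG, and 5993 and 6178 between the lines in shCtrl and shPTN cells, and the list genes called were 0, 0, 13, 26, 33 and 30. These list counts, and those without 1 sample below, include genes that passed the filter through 1 group alone. Counted so without the block, the list genes called were 0, 0, 13, 24, 33 and 31.

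Leaving out each sample in turn, the genes called ranged from 1164 to 2139 in E0771, where 2140 were called in all samples (1268 without shCtrl replicate 2, 1164 without shCtrl replicate 3, 1220 without shPTN replicate 3), and from 3206 (without shPTN replicate 2) to 5113 in E0771-LG, where 4826 were called. List genes called ranged from 6 to 14 in E0771 and from 11 to 27 in E0771-LG. Fewer samples enter these fits. The range was 4469 to 5704 and 5632 to 6674 between the lines, and 0 in both tumor models.

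Member differences within the 4 experiments moved by less than 1 SD in 310 combinations of gene and setting and by more in 1, which was Cd36 in E0771-LG with a pseudocount of 1 (-2.51). Cd36 had no value without any 1 of the E0771-LG shCtrl samples, since it then missed the filter. Without 1 sample some differences in the 4 experiments changed sign or size: Fabp4 ranged from -0.39 to 0.80 in MMTV-PyMT, -0.82 to 0.66 in E0771 and -0.61 to 0.30 in 4T1, Plin2 from -0.13 to 0.55 and Cd36 from 0.06 to 1.26 in MMTV-PyMT, Lpl from 0.25 to 0.89, Cd36 from -0.49 to -0.01 and Plin2 from 0.05 to 0.38 in 4T1, Fabp5 from -0.34 to 0.05 in MMTV-PyMT, and Lipe from -0.53 to -0.02 in E0771 and 0.01 to 0.33 in E0771-LG. Between the lines in shPTN cells Fabp4 ranged from 0.12 to 1.60 and Lipe from -0.10 to 0.42, and in shCtrl cells Lipe from -0.44 to -0.05. Small differences of Plin2 in E0771 (-0.11 to -0.02) and of Pnpla2 in 4T1 (-0.09 to 0.13), MMTV-PyMT (-0.05 to 0.20) and E0771-LG (-0.05 to 0.03) also varied. Depth limits Lpl and Fabp5 in cells, where both groups are at the floor, and is unknown in 4T1.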
